A study of Mus musculus with 12 samples.

Results

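The BAF complex (the mammalian SWI/SNF complex) is an ATP-driven chromatin remodeler, and the 10 genes described here encode its 2 alternative ATPases and the subunits that are exchanged when neural progenitors become neurons. They were taken as the probe sets annotated with exactly 1 of these gene symbols, and each gene had 1 such probe set, so that 10 of 19937 genes measured by a dedicated probe set are described. Smarca4 (BRG1) and Smarca2 (BRM) are the ATPases. Actl6a, Phf10, Dpf2 and Ss18 are here called progenitor subunits, and Actl6b, Dpf1, Dpf3 and Ss18l1 neuronal subunits.

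BAF complexes use ATP hydrolysis to slide or evict nucleosomes and so change which DNA is accessible. In the mouse nervous system the complex is assembled with a different set of paralogous subunits in dividing progenitors than in postmitotic neurons. The actin-related subunit Actl6a gives way to Actl6b, Ss18 to Ss18l1 (the calcium-responsive transactivator CREST), and the PHD-finger subunits Phf10 and Dpf2 to Dpf1 and Dpf3. Mouse neurons that lack Actl6b or Ss18l1 have defects of dendrite growth.

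The study sorted GFP+ cells from dissociated mouse cortex by FACS to compare pyramidal cells with interneurons during cortical wiring. All mice were C57BL6 and carried the Cre-dependent GFP reporter RCE. The groups were Nkx2-1Cre;RCE interneurons at postnatal day 10 (IN P10) and at postnatal day 0 (IN P0), and NexCre;RCE pyramidal cells at postnatal day 12 (Pyr P12) and at postnatal day 0 (Pyr P0). Each group had 3 arrays, for the biological replicates A to C of the labels. No progenitor group was sorted, so the exchange of subunits between progenitors and neurons was not itself measured. Cre driven from Nkx2-1 marks descendants of the medial ganglionic eminence, of any subtype, and Cre driven from Nex (Neurod6) marks cells of the excitatory lineage. The labels give cortex as the tissue of all samples and name the somatosensory cortex for the pyramidal cells alone. A comparison of IN P10 with Pyr P12 also holds a difference of age, and neither the number of animals behind a replicate nor their sex was given in the labels.

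Values are log2 signals after Robust Multiarray Average (RMA) normalization by the authors, which scales the arrays to each other. Each change is therefore relative to the other transcripts of the array. The deposited values were not on exactly 1 distribution, with medians from 8.12 (Pyr P0 replicate A) to 8.22 (Pyr P12 replicate B). Background was read from olfactory and vomeronasal receptor probe sets, whose upper 5% lay above 7.13 to 7.45 depending on the array. All 10 genes were above this level on all 12 arrays. At both ages, all 10 interneuron markers were higher by a fold of more than 2 in interneurons relative to pyramidal cells, and 6 of 7 pyramidal markers were lower by as much. The markers of the other population had a lower mean in the older sorts. Of 7 pyramidal markers, 3 were called lower in IN P10 against IN P0, while Slc17a7 averaged 8.14 in IN P10 and 8.02 in IN P0. Pyramidal markers had a mean log2 signal of 7.45 to 7.51 in IN P10, against 8.63 to 9.16 in IN P0, with Neurod6 at 6.29 in IN P10 and 9.85 in IN P0. Interneuron markers had 7.74 to 7.86 in Pyr P12, against 8.91 to 9.41 in Pyr P0, and 7 of 10 were called lower there, Erbb4 by -2.79. Of 8 oligodendrocyte precursor markers, 8 were called higher in IN P10 against Pyr P12 and 7 in IN P0 against Pyr P0. The exception at P0 was Ptprz1, with 12.04 in IN P0 and 11.97 in Pyr P0. The 8 markers had a mean log2 signal of 10.1 to 10.7 in IN P10 and 10.2 to 10.5 in IN P0, against 7.76 to 7.91 in Pyr P12 and 8.18 to 8.45 in Pyr P0. Astrocyte, microglial and endothelial markers had means between 7.11 and 7.99 in all groups. Of 8 astrocyte markers, 6 were above background on every IN P10 array, 4 on every IN P0 array, 5 on every Pyr P12 array and 3 on every Pyr P0 array. Aldoc was called higher in IN P10 against IN P0 (1.29) and Aldh1l1 in Pyr P12 against Pyr P0 (1.29), while Aqp4 and Gja1 were above background on 0 arrays. Of 8 microglial markers, 4 were above background on every IN P10 array, 3 on every IN P0 array, 4 on every Pyr P12 array and 3 on every Pyr P0 array, Trem2 and Cx3cr1 among them in each group, while Aif1 and P2ry12 were above it on 0 arrays. The part of all these markers in the differences given here was not tested. In bulk RNA of this kind, fewer cells that express a gene and less RNA per cell cannot be told apart.

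The DNA just upstream of 3 of these genes is shown because the arrays set them apart, Actl6a and Dpf1 as the members with the lowest fold changes with age and Actl6b as the neuronal partner of Actl6a. The stretches are the 250 bases before the annotated start, from RefSeq on GRCm38.p6, which held 9 of the 10 genes. All 3 are given 5' to 3' on the strand of the gene, which is the plus strand for each. They lie at chr3:32708296-32708545, chr5:137553296-137553545 and chr7:29303755-29304004. Capitals mark the CCAAT box (CCAAT) and the GC box (GGGCGG), searched on both strands.
Actl6a: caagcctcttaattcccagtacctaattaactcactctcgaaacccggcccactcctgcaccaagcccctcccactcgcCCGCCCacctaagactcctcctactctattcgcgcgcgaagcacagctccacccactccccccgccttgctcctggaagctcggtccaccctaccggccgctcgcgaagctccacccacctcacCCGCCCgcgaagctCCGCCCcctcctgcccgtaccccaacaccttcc
Actl6b: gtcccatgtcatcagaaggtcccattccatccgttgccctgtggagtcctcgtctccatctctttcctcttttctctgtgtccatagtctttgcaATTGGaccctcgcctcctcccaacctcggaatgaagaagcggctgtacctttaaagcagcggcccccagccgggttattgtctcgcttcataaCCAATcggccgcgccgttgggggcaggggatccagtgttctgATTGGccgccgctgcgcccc
Dpf1: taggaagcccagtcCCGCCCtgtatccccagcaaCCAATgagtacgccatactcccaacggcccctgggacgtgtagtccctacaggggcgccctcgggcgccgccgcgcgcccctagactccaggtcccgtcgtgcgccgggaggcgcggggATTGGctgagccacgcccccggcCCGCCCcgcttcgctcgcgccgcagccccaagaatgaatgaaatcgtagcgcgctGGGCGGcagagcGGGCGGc
The window of Actl6a held 0 CCAAT boxes and 3 GC boxes. That of Actl6b held 3 CCAAT boxes and 0 GC boxes, and that of Dpf1 held 2 CCAAT boxes and 4 GC boxes. Of 32841 promoters of the same length, 33.9% held at least 1 CCAAT box, 10.1% held 2 or more, and 32.7% held a GC box. Dpf3 also had 3 CCAAT boxes, with 1 GC box, and Dpf2 had 1 and 0. Smarca4, Smarca2, Phf10 and Ss18l1 had 0 CCAAT boxes, against 3, 2, 5 and 1 GC boxes, some of which overlapped each other in Phf10. A TATA box (TATAAA) or an E-box (CACGTG) was found in 0 of the 9 windows, against 12.4% and 6.02% of all promoters. These are letter matches only, and binding was not measured.

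With age, the progenitor subunit Actl6a fell in both populations while its neuronal partner Actl6b did not rise, with log2 fold changes of -0.16 and -0.04. Actl6a had 9.23, 9.18 and 9.004 on the IN P10 arrays, against 10.42, 10.64 and 10.44 on the IN P0 arrays. In pyramidal cells it had 9.24, 9.44 and 9.42 at P12, against 10.41, 10.37 and 10.16 at P0. The older arrays lay below the P0 arrays of the same population without overlap. The log2 fold change was -1.37 in interneurons (SE 0.09, 95% interval -1.56 to -1.18, adjusted p = 2.31e-08) and -0.95 in pyramidal cells (SE 0.09, -1.13 to -0.76, adjusted p = 6.48e-07). The adjusted p here and below is limma's, with Benjamini-Hochberg adjustment over 22961 probe sets. A gene is called where it is under 0.05 and the fold change is over 2, so Actl6a was called in interneurons and lay just inside a fold of 2 in pyramidal cells. Without the Pyr P0 array of replicate C it passed that fold there too.

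Actl6b, the actin-related subunit found only in the neuronal complex, had 11.47, 11.41 and 11.35 in IN P10, against 11.58, 11.65 and 11.49 in IN P0. In pyramidal cells the values were 11.76, 11.64 and 11.71 at P12, against 11.75, 11.79 and 11.69 at P0. The pyramidal groups overlapped and the interneuron groups did not. The log2 fold change was -0.16 in interneurons (95% interval -0.29 to -0.04, adjusted p = 0.0358) and -0.04 in pyramidal cells (-0.16 to 0.09, adjusted p = 0.622). The interneuron value lost its pass when any 1 of 4 arrays was left out (adjusted p = 0.156 without IN P0 replicate B, 0.14 without IN P10 replicate C, 0.0871 without IN P10 replicate B and 0.0847 without IN P0 replicate A) and after centring the arrays on their medians (0.0582). The pyramidal interval allows a rise of no more than 0.09.

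**Figure D1:**
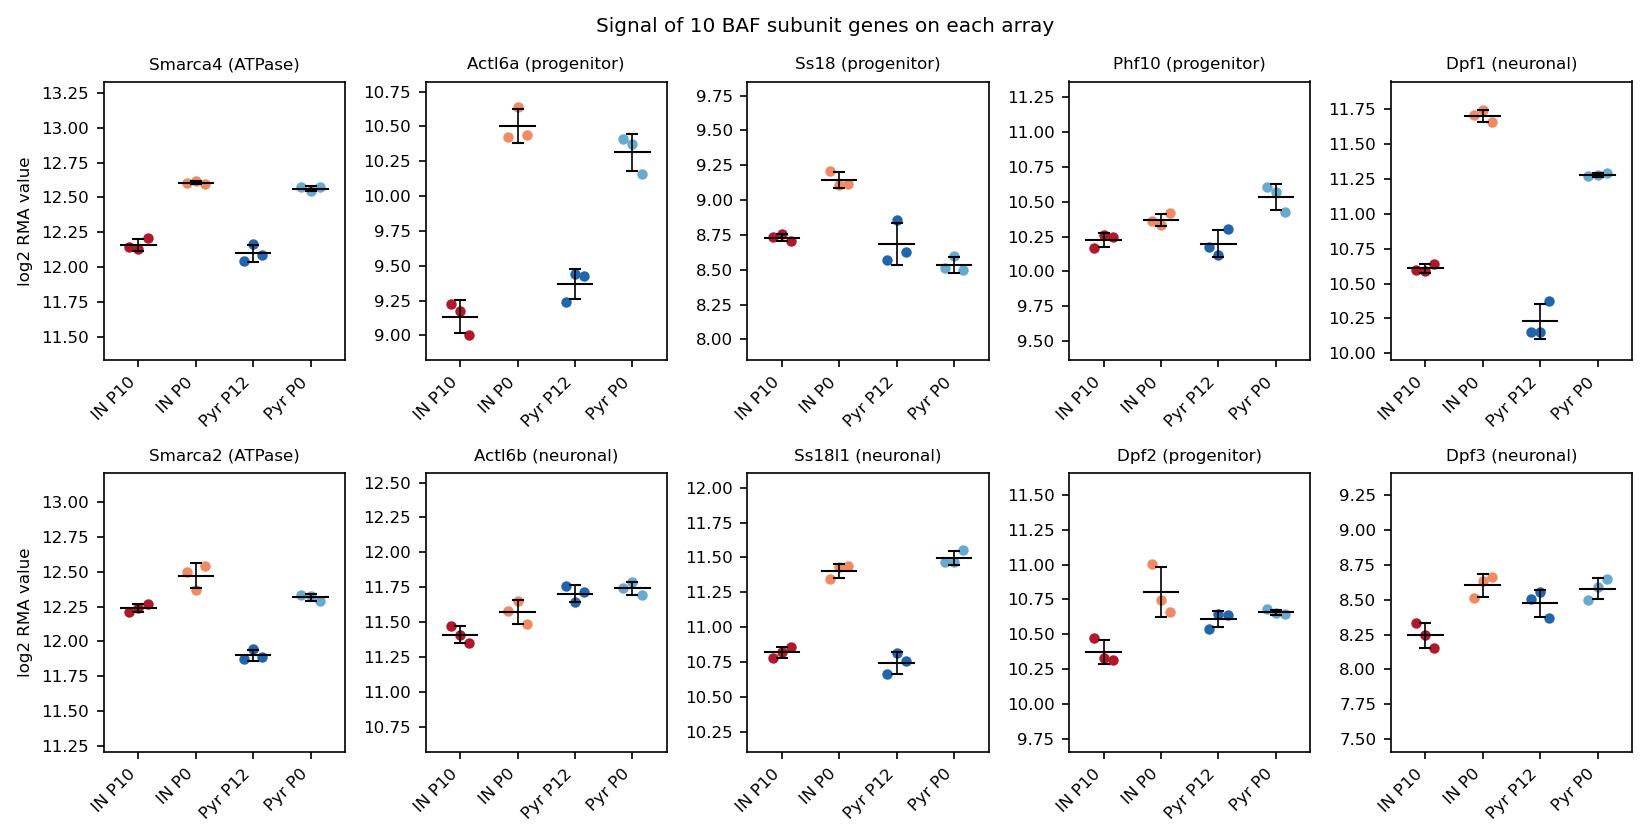
Log2 RMA value (y axis) of each of the 10 BAF subunit genes on each array, with points for replicates A, B and C from left to right, long bars for group means and error bars for 1 SD (n = 3 arrays). Each panel spans the same range of 2 log2 units around its own gene, so distances can be compared between panels while levels of different probe sets cannot; Actl6a averages 9.14 in IN P10 and 10.50 in IN P0, and 9.37 in Pyr P12 and 10.31 in Pyr P0, and Ss18 in pyramidal cells is the only case of an older mean above its P0 mean.

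The PHD-finger subunits did not move by class. Dpf1, a neuronal subunit with tandem PHD fingers of the kind that read histone tails, was the other gene called lower with age. It had 10.60, 10.59 and 10.64 in IN P10, against 11.71, 11.74 and 11.66 in IN P0. In pyramidal cells it had 10.16, 10.16 and 10.38 at P12, against 11.27, 11.28 and 11.29 at P0. The older arrays lay below all P0 arrays of their population. Its log2 fold change was -1.09 in interneurons (SE 0.06, adjusted p = 6.14e-09) and -1.05 in pyramidal cells (SE 0.06, adjusted p = 5.77e-09).

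Dpf3, the other neuronal member of this family, averaged 8.25 ± 0.09 in IN P10 and 8.60 ± 0.08 in IN P0 (SD, n = 3 each). It averaged 8.47 ± 0.10 in Pyr P12 and 8.58 ± 0.08 in Pyr P0. It was lower in IN P10 by a log2 fold change of -0.36 (adjusted p = 0.000676), and the pyramidal groups, at -0.11 (95% interval -0.26 to 0.04, adjusted p = 0.22), overlapped. The difference between these changes did not pass (-0.25, adjusted p = 0.0687). Dpf2, the broadly expressed member of the family, had 10.47, 10.33 and 10.31 in IN P10, against 11.002, 10.75 and 10.66 in IN P0. Its pyramidal values were 10.54, 10.65 and 10.64 at P12, against 10.68, 10.66 and 10.64 at P0. The change was -0.43 in interneurons (adjusted p = 0.00038) and -0.05 in pyramidal cells (95% interval -0.22 to 0.12, adjusted p = 0.616). Phf10, a subunit of the progenitor complex, averaged 10.22 ± 0.05 in IN P10 and 10.37 ± 0.04 in IN P0, and 10.20 ± 0.10 in Pyr P12 and 10.53 ± 0.10 in Pyr P0. Its log2 fold change was -0.14 in interneurons (adjusted p = 0.0863) and -0.34 in pyramidal cells (adjusted p = 0.000509), and the difference between these did not pass (0.19, adjusted p = 0.128).

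In the SS18 family, the neuronal Ss18l1 was lower with age in both populations, and the progenitor Ss18 in interneurons. Ss18l1 had 10.78, 10.82 and 10.86 in IN P10, against 11.35, 11.43 and 11.44 in IN P0. In pyramidal cells it had 10.66, 10.81 and 10.76 at P12, against 11.47, 11.46 and 11.55 at P0. All older arrays lay below all P0 arrays. The log2 fold change was -0.59 in interneurons (SE 0.06, adjusted p = 8.55e-07) and -0.75 in pyramidal cells (SE 0.06, adjusted p = 5.91e-08). Ss18, its progenitor paralog, had 8.73, 8.75 and 8.71 in IN P10, against 9.21, 9.11 and 9.11 in IN P0. Its pyramidal values were 8.57, 8.86 and 8.63 at P12, against 8.51, 8.60 and 8.49 at P0. It was lower in IN P10 by -0.41 (adjusted p = 0.000196), and in pyramidal cells its value was 0.15 (95% interval 0.00 to 0.30, adjusted p = 0.0836).

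Both ATPase genes fell with age by less than a fold of 2. Smarca4 averaged 12.16 ± 0.04 in IN P10 and 12.61 ± 0.01 in IN P0 (SD, n = 3 each), and 12.10 ± 0.06 in Pyr P12 and 12.56 ± 0.02 in Pyr P0. Its log2 fold change was -0.45 in interneurons (adjusted p = 3.78e-06) and -0.46 in pyramidal cells (adjusted p = 2.22e-06). Smarca2 had 12.21, 12.24 and 12.27 in IN P10, against 12.50, 12.37 and 12.54 in IN P0. In pyramidal cells it had 11.87, 11.95 and 11.89 at P12, against 12.33, 12.33 and 12.29 at P0. The change of Smarca2 was -0.23 in interneurons (adjusted p = 0.00251) and -0.41 in pyramidal cells (adjusted p = 1.68e-05).

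**Figure D2:**
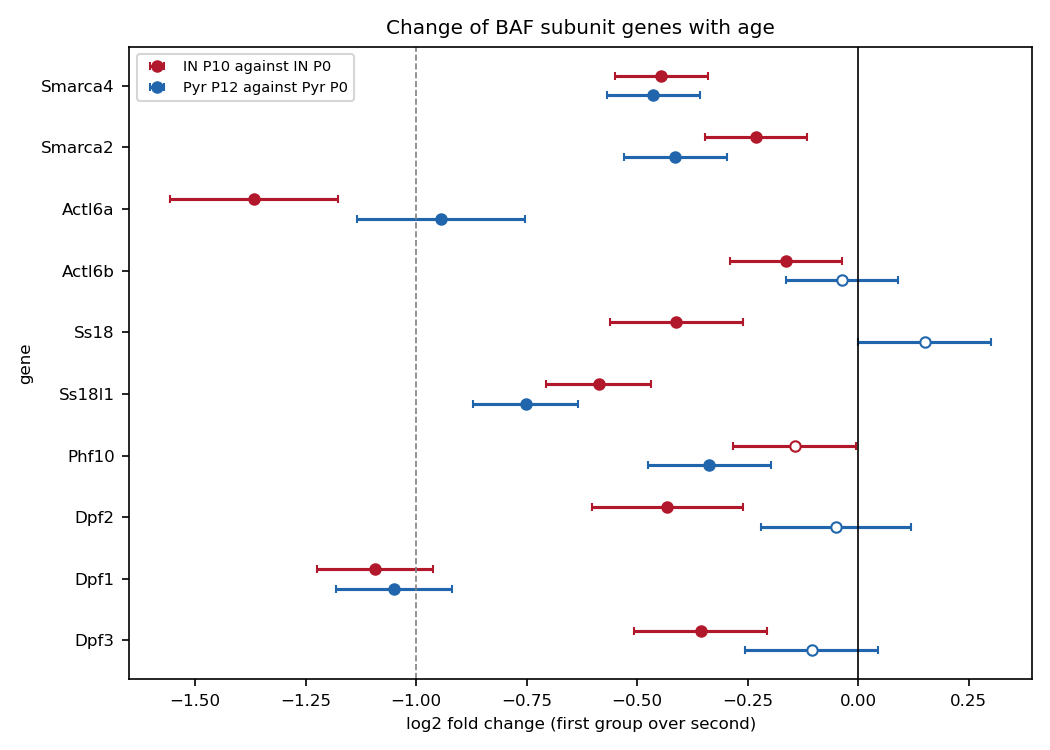
Log2 fold change with age (x axis) of each gene (y axis) in interneurons (red, above) and pyramidal cells (blue, below), with 95% intervals from limma. Filled points passed an adjusted p of 0.05, open points did not, and the dashed line marks a fold of 2; Actl6a in interneurons (-1.37) and Dpf1 in both populations (-1.09 and -1.05) lie past it, and no gene passed as higher.

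Counted together, 2 of the 10 genes were called lower and 0 higher in IN P10 against IN P0, where 2.85% of all tested probe sets were called lower and 4.19% higher. In Pyr P12 against Pyr P0, 1 was called lower and 0 higher, where 3.48% and 5.68% of probe sets were called. At any fold, 9 of the 10 passed as lower in interneurons, against 23.1% of all probe sets and 31.3% of those above background. In pyramidal cells 6 of the 10 passed as lower, against 21.7% of all and 29.4% of those above background. The adjusted p was passed as higher by 0 of the 10 in either population, against 22.3% of all probe sets in interneurons and 33.0% in pyramidal cells. The arrays did not overlap for 10 of the 10 in interneurons, with the older lower, a pattern that 28.3% of all probe sets showed. In pyramidal cells this held for 6 of the 10, against 22.5%. The median log2 fold change of the 10 genes was -0.42 in interneurons and -0.38 in pyramidal cells, beside 0.00 and 0.06 for all tested probe sets. By class, 3 of 4 progenitor subunits and 4 of 4 neuronal subunits passed as lower in interneurons, and 2 of 4 and 2 of 4 in pyramidal cells. Smarca4, Smarca2, Actl6a, Dpf1 and Ss18l1 passed as lower in both populations, as did 15.0% of all probe sets.

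The balance within each pair of paralogs was followed as the difference of their log2 signals on an array. A fixed offset of each probe set drops out of its change between groups. A difference in how strongly the 2 probe sets respond does not drop out, as where 1 of them is dimmer. The balance is given as a description. Of the actin-related, SS18 and PHD-finger families, the actin-related pair alone moved toward the neuronal subunit in both populations. Actl6b minus Actl6a was higher by 1.18, 1.16 and 1.28 on the 3 IN P10 arrays than the mean of IN P0, and by 1.09, 0.78 and 0.86 on the Pyr P12 arrays than the mean of Pyr P0. The mean shifts were 1.20 and 0.91, or 2.30 and 1.88 times the P0 ratio, beside a pooled SD of 0.11 between arrays of a group. Actl6b itself did not rise, so the shifts lay in the lower values of Actl6a.

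Ss18l1 minus Ss18 moved the other way, by -0.18 in interneurons and -0.90 in pyramidal cells (pooled SD 0.09). The 3 Pyr P12 arrays had -0.87, -1.005 and -0.83. The interneuron groups overlapped, with -0.22, -0.20 and -0.11 in IN P10 against -0.12, 0.06 and 0.06 in IN P0. The mean of Dpf1 and Dpf3 minus the mean of Phf10 and Dpf2 changed by -0.44 in interneurons and -0.38 in pyramidal cells (pooled SD 0.08). Among the single pairs of that family, Dpf1 minus Dpf2 changed by -0.66 in interneurons and -1 in pyramidal cells (pooled SD 0.12), and Dpf1 minus Phf10 by -0.95 and -0.71 (pooled SD 0.08). Dpf3 minus Phf10 changed by -0.21 in interneurons and by 0.23 in pyramidal cells (pooled SD 0.15), and the ages overlapped in both populations. In pyramidal cells the lowest P12 array had 0.016 and the highest P0 array 0.175. Dpf3 itself did not rise there (-0.11), and Phf10 was lower (-0.34). Dpf3 minus Dpf2 changed by 0.07 and -0.06 (pooled SD 0.15), with overlap in both populations. Smarca2 minus Smarca4 changed by 0.21 in interneurons and 0.05 in pyramidal cells (pooled SD 0.06).

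**Figure D3:**
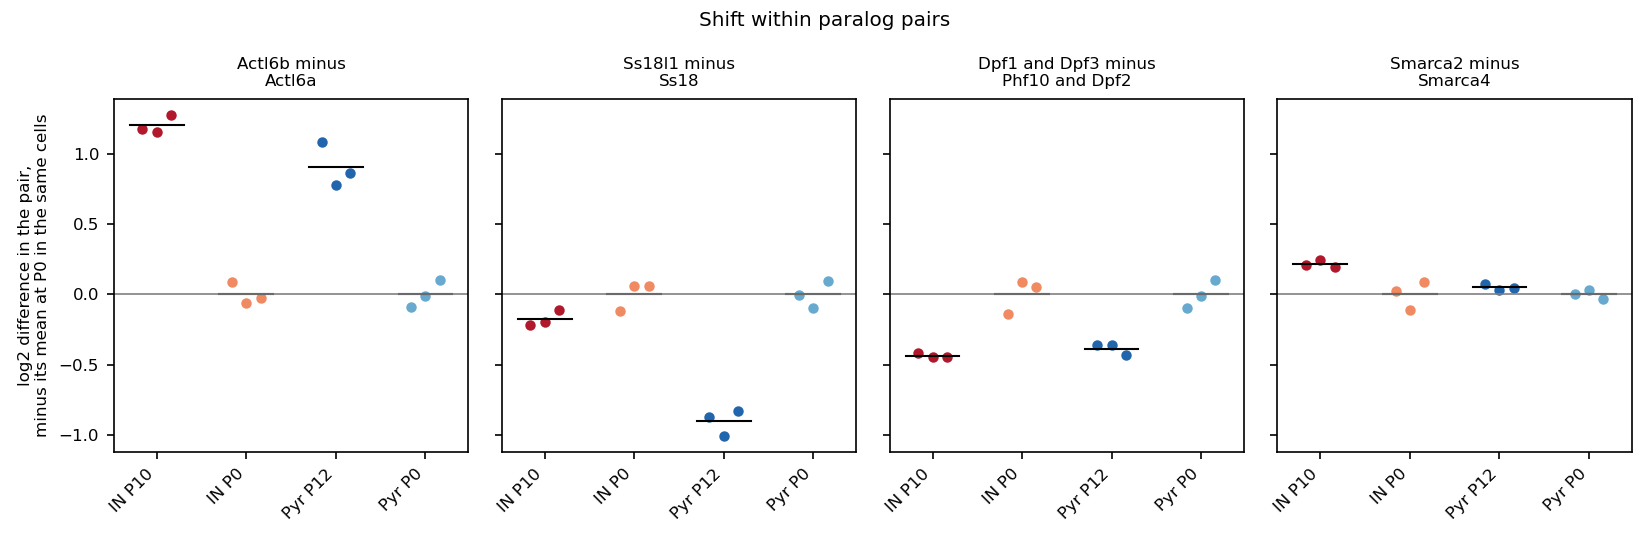
Log2 difference between paralogous subunits on each array, neuronal minus progenitor (Smarca2 minus Smarca4 for the ATPases), after subtraction of the mean of the P0 arrays of the same population (y axis). Points are replicates A, B and C and bars are group means; Actl6b minus Actl6a lies at 1.20 in IN P10 and 0.91 in Pyr P12, while Ss18l1 minus Ss18 lies at -0.18 and -0.90.

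Whether the change with age differed between the populations was tested as the change in interneurons minus the change in pyramidal cells. It passed for 3 genes, all progenitor subunits and all with a more negative change in interneurons, where 20.3% of all probe sets passed in this direction and 11.8% in the other. The difference was -0.56 for Ss18 (SE 0.10, adjusted p = 0.000616), -0.42 for Actl6a (SE 0.12, adjusted p = 0.0192) and -0.38 for Dpf2 (SE 0.11, adjusted p = 0.0179). That of Actl6a did not pass without IN P0 replicate B (adjusted p = 0.0508) or without IN P10 replicate C (0.0518). For the other 7 genes the adjusted p was not under 0.05. Dpf1 had -0.04 (95% interval -0.23 to 0.14) and Smarca4 0.02 (-0.13 to 0.17). The 13 measured markers of dividing and progenitor cells had a mean log2 signal of 7.56 to 7.69 in IN P10 and 7.92 to 7.93 in IN P0, against 7.26 to 7.30 in Pyr P12 and 7.38 to 7.50 in Pyr P0. Myelinating oligodendrocyte markers had 9.34 to 9.75 in IN P10 and 8.22 to 8.30 in IN P0, against 8.01 to 8.08 in Pyr P12 and 7.70 to 7.81 in Pyr P0. Sox2, which is also expressed in glia, averaged 11.06 for IN P10 and 11.88 for IN P0, while Pyr P12 had 7.29 and Pyr P0 8.64, and the median difference of the 13 markers was 0.07 in IN P10 against Pyr P12 and 0.36 in IN P0 against Pyr P0. Of the 13, 5 were above background on no IN P10 array and 4 on no IN P0 array, against 7 in Pyr P12 and 5 in Pyr P0. Their part in these differences was not tested.

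Between populations of like age, 0 of the 10 genes were called in either direction. In IN P10 against Pyr P12, 2.65% of all probe sets were called higher and 2.91% lower, and in IN P0 against Pyr P0 1.90% and 1.74%. At any fold, Dpf1 was higher in interneurons at both ages, by 0.38 in IN P10 against Pyr P12 (adjusted p = 0.000181) and by 0.42 in IN P0 against Pyr P0 (adjusted p = 0.000135). Smarca2 was higher by 0.34 in IN P10 (adjusted p = 0.000165), with 0.15 at P0 (adjusted p = 0.0551). Ss18 was higher by 0.61 at P0 in IN relative to Pyr (95% interval 0.46 to 0.76, adjusted p = 1.41e-05), the largest difference among the 10 genes between populations, and had 0.05 in the older pair (adjusted p = 0.61). Actl6b had -0.29 in IN P10 against Pyr P12 (adjusted p = 0.00103) and -0.17 in IN P0 against Pyr P0 (adjusted p = 0.0571).

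Actl6a, Dpf2 and Dpf3 passed as lower in IN P10, relative to Pyr P12, with log2 fold changes of -0.23, -0.24 and -0.23 (adjusted p = 0.0445, 0.0246 and 0.0163), and these passes did not hold throughout. Without Pyr P12 replicate B the adjusted p was 0.137 for Actl6a, 0.0736 for Dpf2 and 0.0673 for Dpf3, and without IN P10 replicate C it was 0.18, 0.0868 and 0.0762. Centring the arrays on their medians gave 0.0896 for Actl6a and 0.0511 for Dpf2. A second quantile normalization gave 0.115 and 0.0876, and Dpf3 kept its pass under both. The median log2 fold change of all probe sets in this comparison was -0.07. In all, 2 genes passed as higher and 4 as lower in the older pair, where 16.1% and 30.4% of all probe sets did. At P0, 2 passed as higher and 0 as lower, where 11.1% and 11.3% did. The Ss18l1 to Ss18 balance was -0.70 on the log2 scale in IN P0 relative to Pyr P0, and 0.03 in the older pair.

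**Figure D4:**
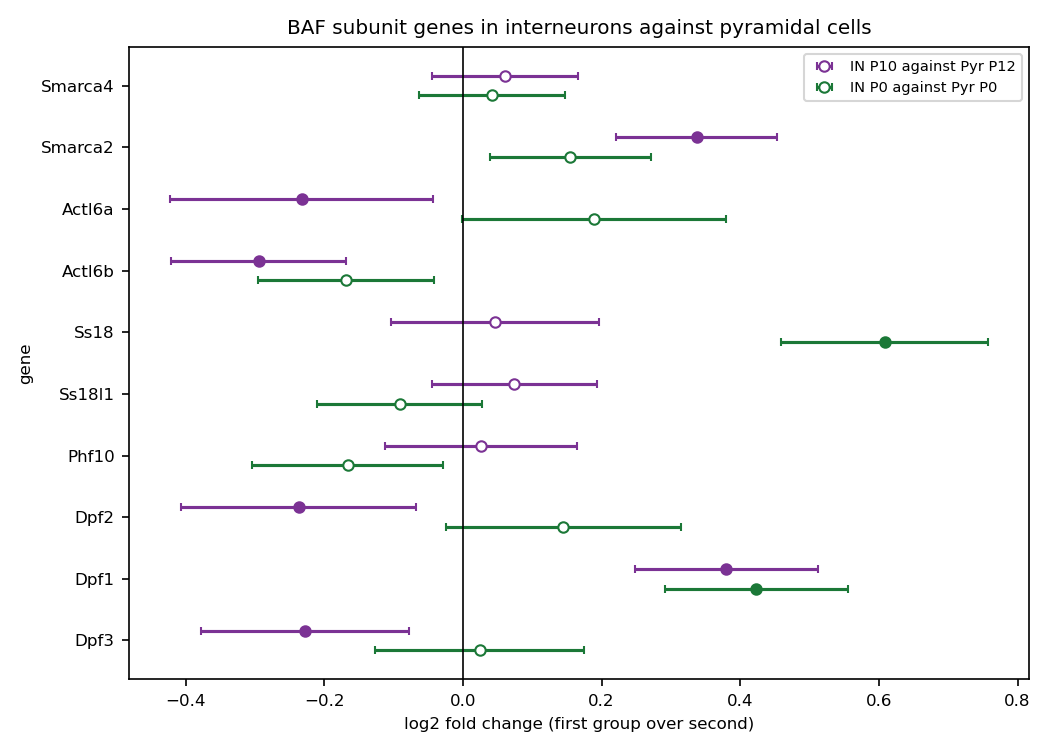
Log2 fold change of interneurons over pyramidal cells (x axis) for each gene (y axis), in the older pair (purple, above) and at P0 (green, below), with 95% intervals from limma. Filled points passed an adjusted p of 0.05; Ss18 at P0 (0.61) and Dpf1 at both ages (0.38 and 0.42) stand farthest to the right, and no gene reaches a fold of 2.

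In order of level, Actl6a was highest in IN P0, then Pyr P0, Pyr P12 and IN P10. The P0 groups did not pass as different (0.19, 95% interval -0.00 to 0.38, adjusted p = 0.165). For Actl6b the order was Pyr P0, Pyr P12, IN P0 and IN P10, and the pyramidal groups did not pass as different from each other. Over the 12 arrays, the genes most like Actl6a by Pearson correlation, among 14122 others above background in a group, were Tfap4 (0.995), Mybbp1a (0.991) and Snord85 (0.991). Snord85 averaged 6.61 in IN P10 and 6.74 in Pyr P12, below the background level of those arrays, against 7.975 in IN P0 and 7.87 in Pyr P0. It entered the comparison through its P0 values. Tfap4 encodes a basic helix-loop-helix transcription factor, Mybbp1a a nucleolar Myb-binding protein and Snord85 a small nucleolar RNA. Most like Actl6b were Zfp583 (0.976), Ykt6 (0.966) and Vgll4 (0.955), which encode a zinc finger protein, a SNARE of membrane traffic and a cofactor of TEAD transcription factors. Among the members, Smarca4 and Ss18l1 had a correlation of 0.982, Actl6a and Ss18l1 0.933, and Actl6a and Actl6b 0.43. The 12 arrays fall into 4 groups that share their population and age, so they are not 12 independent points.

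Most of the other subunits of the complex passed as lower with age. Of 20 other BAF subunit genes, 19 passed as lower and 0 as higher in IN P10 against IN P0, with a median log2 fold change of -0.59, where 23.1% of all probe sets passed as lower and the median of all was 0.00. In Pyr P12 against Pyr P0, 14 passed as lower and 2 as higher, with a median of -0.60, where 21.7% of all probe sets passed as lower and 33.0% as higher and the median of all was 0.06. Called lower were Smarce1, which encodes an HMG-box subunit, in interneurons (-1.11, adjusted p = 1.96e-09), and Bcl11b and Pbrm1 in pyramidal cells (-1.14, adjusted p = 9.73e-10, and -1.11, adjusted p = 1.66e-09). Smarce1 averaged 11.74 in Pyr P12 and 12.63 in Pyr P0. In interneurons Bcl11b averaged 10.67 at P10 and 11.49 at P0, and Pbrm1 averaged 11.32 and 11.89. Bcl11b is a zinc finger transcription factor associated with the complex and Pbrm1 a subunit with bromodomains of the PBAF form. Arid1a, the DNA-binding subunit of canonical BAF and named after its values were seen, had -0.99 in interneurons (adjusted p = 2e-09) and -0.77 in pyramidal cells (adjusted p = 1.37e-08). The 2 that passed as higher in pyramidal cells were Bcl7b (0.52, adjusted p = 1.1e-05) and Brd9 (0.20, adjusted p = 0.00995), a bromodomain subunit of the non-canonical form. Bcl7b had -0.06 in interneurons (adjusted p = 0.516), and its difference between the populations passed (-0.58, adjusted p = 0.000264). So did those of Smarcd1 (-0.60, adjusted p = 0.00027) and Pbrm1 (0.55, adjusted p = 0.000164).

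Between populations, Bcl11b had a log2 fold change of 0.94 in IN P10 over Pyr P12 (adjusted p = 1.17e-08) and of 0.61 in IN P0 over Pyr P0 (adjusted p = 1.56e-06). Smarcd3, a subunit known from BAF complexes of heart and skeletal muscle, was higher by 0.64 in the older pair (adjusted p = 2e-06), and Bcl7b was lower (-0.56, adjusted p = 8.41e-06). At P0, Bcl11a, the paralog of Bcl11b, was lower in interneurons (-0.46, adjusted p = 4.44e-05) and Smarcd1 higher (0.45, adjusted p = 0.000171). In all, 4 of the 20 passed as higher and 8 as lower in the older pair, where 16.1% and 30.4% of all probe sets did. At P0, 4 passed as higher and 4 as lower, where 11.1% and 11.3% did.

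Other remodeler families were read beside BAF. Of all probe sets, 23.1% passed as lower and 22.3% as higher with age in interneurons, and 21.7% and 33.0% in pyramidal cells. Of 11 ISWI genes, 9 passed as lower with age in each population and 1 as higher, with medians of -0.78 in interneurons and -0.39 in pyramidal cells. Cecr2, a bromodomain partner of ISWI ATPases, had -1.37 and -1.78 (adjusted p = 3.29e-07 and 1.92e-08), and was at background on all arrays of the older groups, where it was at least 2.13-fold lower in IN P10 and at least 2.61-fold lower in Pyr P12. Bptf, the large subunit of the NURF complex, had -1.10 in interneurons (adjusted p = 1.38e-08), and averaged 10.65 in Pyr P12 and 11.38 in Pyr P0. Of 20 CHD and NuRD genes, 14 and 12 passed as lower and 1 and 3 as higher. The NuRD subunit Mta2 was called lower in both populations (-1.19, adjusted p = 6.24e-09, and -1.09, adjusted p = 9.13e-09), and the remodelers Chd1 (-1.33, adjusted p = 1.29e-08) and Chd2 (-1.04, adjusted p = 2.86e-07) in interneurons. In pyramidal cells Chd1 averaged 9.60 at P12 and 10.4 at P0, and Chd2 averaged 9.98 and 10.87. Of 19 INO80 and SRCAP genes measured, 10 and 8 passed as lower and 3 and 6 as higher. Actr5, an actin-related subunit of INO80, was called lower in IN P10 against IN P0 (-1.05, adjusted p = 2.36e-08) and higher in IN P0 against Pyr P0 (1.07, adjusted p = 3.6e-08). It averaged 7.92 in Pyr P12 and 8.22 in Pyr P0. In pyramidal cells the largest INO80 and SRCAP changes were those of Vps72 (-0.87, adjusted p = 2.57e-06), Uchl5 (0.80, adjusted p = 9.81e-06) and Ruvbl2 (-0.64, adjusted p = 6.27e-07).

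Between populations these families had 1 call. Of all probe sets, 2.65% were called higher and 2.91% lower in the older pair, and 1.90% and 1.74% at P0. In IN P10 against Pyr P12, Chd7, a remodeler of neural crest and neural stem cells, was higher (0.74, adjusted p = 0.000691), and the NuRD subunit genes Mbd2 (-0.63, adjusted p = 2.22e-07) and Chd4 (-0.44, adjusted p = 1.79e-05) were lower. The ISWI partners Baz2b (-0.59, adjusted p = 2.71e-06) and Baz2a (-0.43, adjusted p = 9.11e-05) were lower there too, and Ruvbl2 was higher (0.48, adjusted p = 1.73e-05). At P0, Chd7 (0.69, adjusted p = 0.00236), Chd9 (0.49, adjusted p = 0.000125) and Chd6 (0.39, adjusted p = 0.000344) were higher in interneurons. The change with age differed most for Mbd2 among the CHD and NuRD genes (-0.74, adjusted p = 3.31e-06), which had a log2 fold change of 0.77 in Pyr P12 against Pyr P0 (adjusted p = 1.63e-08). In the INO80 and SRCAP list it differed most for Actr5 (-0.75, adjusted p = 4.44e-05), and in the ISWI list for Baz2a (-0.66, adjusted p = 7.32e-05).

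Polycomb complexes place repressive histone marks and oppose BAF at many genes. Of 14 Polycomb genes measured, 10 passed as lower in each population, and 0 in interneurons and 2 in pyramidal cells as higher. Beside these stand 23.1% of all probe sets lower and 22.3% higher in interneurons, and 21.7% and 33.0% in pyramidal cells. Ezh2, the histone methyltransferase of PRC2, averaged 9.31 ± 0.16 in IN P10 and 11.99 ± 0.05 in IN P0, and 9.14 ± 0.14 in Pyr P12 and 11.91 ± 0.12 in Pyr P0 (SD, n = 3 each). Its log2 fold change was -2.68 in interneurons (adjusted p = 6.86e-11) and -2.76 in pyramidal cells (adjusted p = 2.35e-11). Of the PRC1 subunit genes, Bmi1 was called lower in both populations (-1.15, adjusted p = 5.03e-07, and -1.02, adjusted p = 1.39e-06), and Phc1 (-1.22, adjusted p = 1.09e-08) and Cbx2 (-1.21, adjusted p = 2.81e-08) in interneurons. In pyramidal cells these 2 were also lower with age, where Phc1 averaged 10.79 at P12 and 11.6 at P0, and Cbx2 9.05 and 10.04. Between populations, 0 of the 14 were called. Of all probe sets, 2.65% were called higher and 2.91% lower in the older pair, and 1.90% and 1.74% at P0. Eed (-0.48, adjusted p = 0.00105) and Ring1 (-0.40, adjusted p = 0.000574) were lower in IN P10 relative to Pyr P12, and Phc2 (0.39, adjusted p = 0.000128) was higher in IN P0 relative to Pyr P0.

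**Figure D5:**
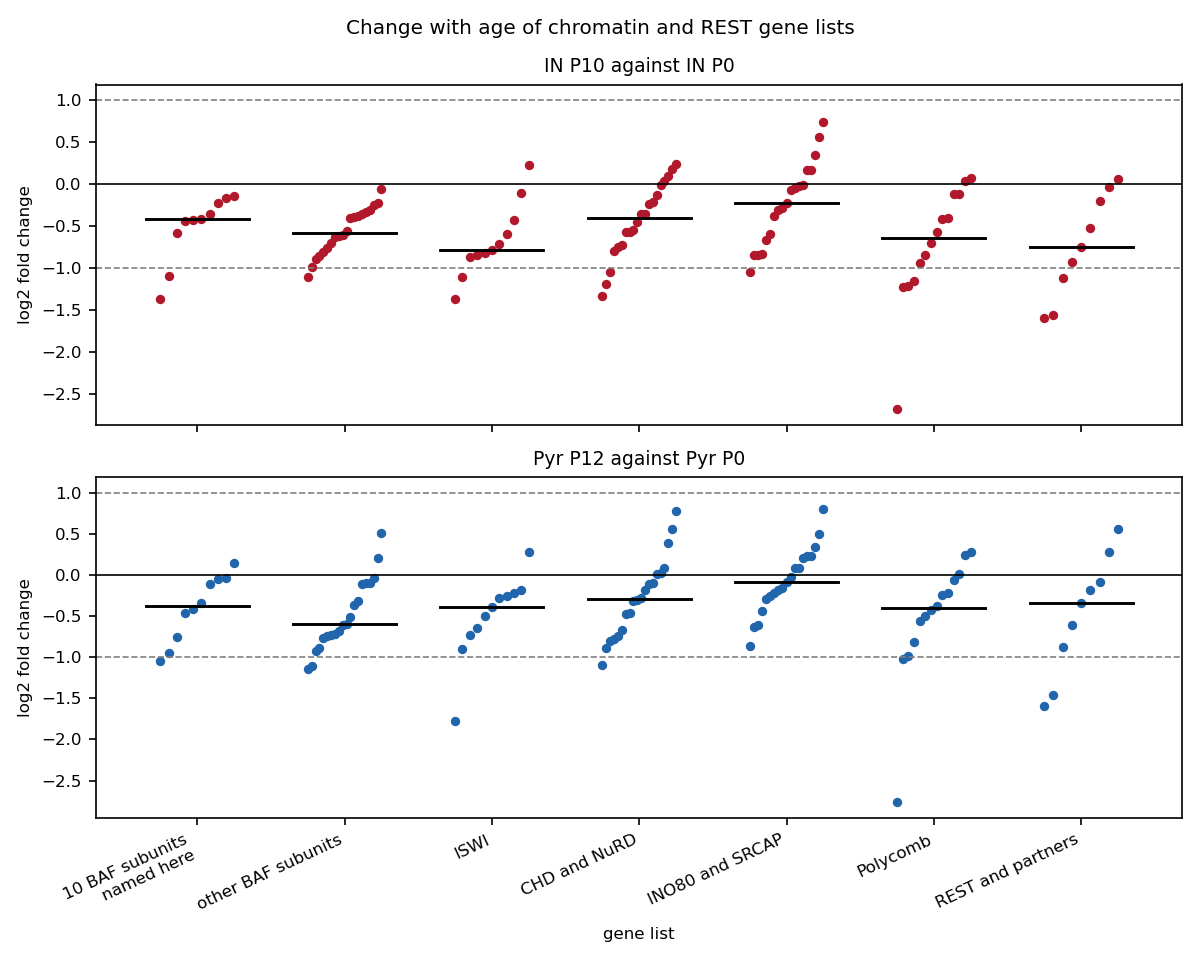
Log2 fold change with age (y axis) of the genes of each list (x axis), in interneurons (upper panel) and pyramidal cells (lower panel), with a point per gene and a bar at the median. Dashed lines mark a fold of 2; the median of the 10 genes is -0.42 and -0.38, that of the other BAF subunits -0.59 and -0.60, and the lowest point in each panel is Ezh2 (-2.68 and -2.76).

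Regulators that act on this exchange were measured too. REST is a repressor of neuronal genes in non-neuronal cells and progenitors, and in mouse neural cells it holds down microRNAs that in turn repress Actl6a, among them the 3p strand of miR-9. The mature strands from the Mir9-1 locus at chr3:88215613-88215635 and chr3:88215652-88215673 on the plus strand (RefSeq, GRCm38.p6), which all 3 Mir9 loci share, are shown to name that strand, with the seed (bases 2 to 8) in capitals.
mmu-miR-9-5p: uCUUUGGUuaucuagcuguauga
mmu-miR-9-3p: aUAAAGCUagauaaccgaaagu
The seeds of the 2 strands differ. The arrays read the locus transcript and not the mature microRNA. Mir9-1 averaged 9.23 ± 0.18 in IN P10 and 11.45 ± 0.26 in IN P0, and 9.14 ± 0.17 in Pyr P12 and 11.69 ± 0.02 in Pyr P0 (SD, n = 3 each). It was called lower in both populations, with -2.22 (adjusted p = 5.58e-09) and -2.54 (adjusted p = 9.25e-10). Mir9-3 had -0.76 in interneurons (adjusted p = 5.85e-05) and -1.17 in pyramidal cells (adjusted p = 7.87e-07), and was above background on 1 of the 3 IN P10 arrays and on 0 of the 3 Pyr P12 arrays, which leaves it at least 1.84-fold lower in Pyr P12. Mir124a-2 had -0.15 (adjusted p = 0.127) and -0.29 (adjusted p = 0.0048), and Mir124a-3 was above background on no array.

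Rest averaged 7.18 ± 0.16 in IN P10 and 8.78 ± 0.01 in IN P0, and 6.97 ± 0.17 in Pyr P12 and 8.43 ± 0.13 in Pyr P0 (SD, n = 3 each). It was called lower with age in both populations (-1.60, adjusted p = 1.13e-08, and -1.46, adjusted p = 1.81e-08), and was above background on 1 of the 3 IN P10 arrays and on 0 of the Pyr P12 arrays, which leaves it at least 2.09-fold lower in Pyr P12. These bounds put each dim array at the higher of its background level and the value itself. Its corepressor gene Rcor2 had -1.56 (adjusted p = 2.61e-08) and -1.60 (adjusted p = 1.44e-08), and the phosphatase gene Ctdsp2, whose product is recruited by REST, -1.12 in interneurons (adjusted p = 9.58e-10). Ctdsp2 averaged 10.51 in Pyr P12 and 10.85 in Pyr P0. Rcor1, which encodes the corepressor CoREST, had -0.52 in interneurons (adjusted p = 0.00231) and -0.09 in pyramidal cells (adjusted p = 0.562). Of the 9 genes of this list, 7 passed as lower in interneurons and 6 in pyramidal cells, and 0 and 2 as higher. Among all probe sets, 23.1% and 21.7% passed as lower, and 22.3% and 33.0% as higher. In IN P10 against Pyr P12, Rcor1 (-0.78, adjusted p = 0.000112) and the phosphatase genes Ctdspl (-0.63, adjusted p = 5.33e-06) and Ctdsp2 (-0.60, adjusted p = 4.95e-07) were lower. At P0, Rest had a log2 fold change of 0.35 in IN over Pyr (adjusted p = 0.0159).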

How the data were processed

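Total RNA of GFP+ cells sorted from dissociated cortex was measured on 12 Affymetrix Mouse Gene 1.0 ST arrays, and the authors normalized the deposited values with RMA to the log2 scale. The genome build behind these values is not given in the sources used here, and the number of arrays limits the precision.

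Gene symbols came from GEO's platform table. Of 28192 probe sets, 21640 had 1 gene symbol, 1321 several and 5231 none, and the 22961 with any symbol were tested. Only those with 1 symbol named a gene, and a gene with several was read from the probe set with the highest mean over all arrays. The 10 genes and all gene lists were chosen with earlier results of these data known. Besides the 10 genes, the text names from each chromatin list up to 3 genes per comparison with the largest changes among those called, or among those that passed where none was called, and Rest, Rcor1 and the listed microRNA loci. Bmi1 in interneurons, Brd9, Arid1a, and Bcl7b and Mbd2 where outside that rule, were named after their values were seen.

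Limma 3.58.1 in R 4.3.3 was fitted to all 12 arrays with 1 mean per group and 8 residual degrees of freedom, and p-values were adjusted by the Benjamini-Hochberg method in each of 5 comparisons. A gene was called at an adjusted p under 0.05 with a fold over 2, thresholds that the study's methods use with SAM, and passed on the adjusted p alone. The labels call the replicates biological and do not say how many animals each holds. The p-values set differences between groups against the spread between these samples. Limma pools that spread over the 4 groups and draws it toward that of all probe sets. For 3 arrays against 3, a two-sided exact permutation test cannot give a p below 0.1. A probe set was above background on an array where it exceeded the 95th percentile of 1204 chemosensory receptor probe sets. Alternatives were SAM, limma on 2 groups, a trend with robust eBayes, a replicate block, other probe set filters, median centring, a second quantile normalization, other thresholds and each array left out. The code was tested on simulated data. Promoters and microRNAs came from RefSeq tables (GRCm38.p6), searched with Python 3.11.15.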

Additional observations from a re-analysis of the deposited data

Results flagged for a closer look

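The change with age differed between the populations for 3 of the 10 genes, by the test of the difference itself in limma. All 3 had a more negative change in interneurons, where 20.3% of all probe sets passed in that direction and 11.8% in the other. The change in interneurons minus the change in pyramidal cells was -0.562 for Ss18 (adjusted p = 0.000616), with changes of -0.41 in interneurons and 0.15 in pyramidal cells. It was -0.421 for Actl6a (adjusted p = 0.0192), which fell in both populations. The Actl6a difference did not pass without IN P0 replicate B (adjusted p = 0.0508) or without IN P10 replicate C (0.0518). For Dpf2 the difference was -0.382 (adjusted p = 0.0179), with changes of -0.43 in interneurons and -0.05 in pyramidal cells.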

How the results depend on the processing

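Over 1030 refits of the 50 member fold changes, 981 kept their direction and their side of the adjusted p threshold, 23 lost a pass, 18 gained 1 and 8 changed sign, and the sign changes all concerned values that did not pass. A second quantile normalization gave Dpf1 0.049 for the age by population difference. Leaving out each array in turn gave ranges of -0.079 to 0.031 for that value, -0.008 to 0.052 for the Smarca4 age by population difference, -0.014 to 0.079 for Phf10 and -0.011 to 0.132 for Ss18 in IN P10 against Pyr P12, and -0.017 to 0.071 for Dpf3 in IN P0 against Pyr P0. The cause was not tested. Without a fold threshold, the genes called lower were 9 in IN P10 against IN P0 and 6 in Pyr P12 against Pyr P0, beside 23.1% and 21.7% of all probe sets. They were 4 in IN P10 against Pyr P12 and 3 for the age by population difference, beside 30.4% and 20.3%. Those called higher were 2 in IN P10 against Pyr P12 and 2 in IN P0 against Pyr P0, beside 16.1% and 11.1%. At a fold of 1.5 the genes called were 3 lower for IN P10 against IN P0, 3 lower in Pyr P12 against Pyr P0 and 1 higher in IN P0 against Pyr P0. The share of all probe sets at that fold was not counted, so these counts cannot be set against it. The second quantile normalization gave 2 lower in Pyr P12 against Pyr P0, and leaving out an array gave 1 to 2, with 2 where Pyr P0 replicate C was left out. Shares of all probe sets were not counted under these settings.

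Passes gained under an alternative included Phf10 in IN P10 against IN P0 by SAM (adjusted p = 0.00542), Ss18 in Pyr P12 against Pyr P0 without Pyr P12 replicate A (0.208, adjusted p = 0.0281) and Actl6b in IN P0 against Pyr P0 in 5 alternatives (adjusted p = 0.031 to 0.0478). Arrays of the same letter in different groups had correlations of -0.18 to 0.19 after removing group means, with 6 of 18 pairs above 0.1. With 3 arrays per group, these values cannot show whether the letters pair arrays. The replicate block changed 0 of 50 member calls, and the genes called lower were 2 in IN P10 against IN P0 and 1 in Pyr P12 against Pyr P0. The share of all probe sets called under the block was not counted. A different probe set per gene was not run, since each gene had 1. Signals near background, as for Rest and Mir9-3 at the older ages, limit fold changes there.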
